A study of Rattus norvegicus with 16 samples.

Results

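Potassium channel genes were taken as every gene whose only symbol in the array annotation starts with Kcn, with Kcnj10 left out. The rule gave 74 genes, from 125 probe sets (a probe set is the group of short array probes that report 1 transcript), among 14218 genes measured. They fall into 13 pore subunits of the Kcna to Kcnd subfamilies, 3 of Kcnq, 8 of Kcnh, 7 electrically silent subunits (Kcng, Kcns and Kcnv), 14 of Kcnj, 11 of Kcnk, 5 calcium- or sodium-activated channels (Kcnm, Kcnn and Kcnt) and 13 auxiliary subunits (Kcnab, Kcne, Kcnip and Kcnmb). For 31 genes the mean of several probe sets was used, and 43 genes had 1 probe set.

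The study followed the lateral cortex of 8-week-old male Wistar rats after a traumatic brain injury. Every animal, shams included, had its skull opened over the right parietal cortex and was then housed for 48 h. It next received either a moderate fluid percussion, a pressure pulse of 3.3 ± 0.3 atm through saline onto the dura, or a sham procedure. Tissue of the contusion area was taken after perfusion with saline at 3, 6, 12 or 48 h, with 3 injured arrays at each time and 1 sham array at each time, 16 arrays in all. The 3, 6 and 12 h shams formed the early sham group (n = 3), and the single 48 h sham stood apart, which is how the series' design grouped them. Differences are given as injured minus early shams unless the 48 h sham is named, and the 4 comparisons with early shams share those 3 arrays.

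Potassium channels let potassium leave the cell and thereby set the resting potential, end each action potential and limit repetitive firing. Voltage-gated channels open on depolarization, inward rectifiers and tandem-pore channels hold the membrane near rest, and auxiliary subunits alter the trafficking and gating of the pore. In cortex, neurons carry most voltage-gated types, whereas astrocytes use inward rectifiers to clear potassium released by firing.

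The deposited values are log intensities with the median of each probe set over the 16 arrays subtracted, read here as log2. They show differences between arrays for a gene, not how strongly a gene is expressed, so levels of different channels cannot be set against each other. The spread over all genes was between 0.199 and 0.387 (SD) per array and was widest in injured 48 h replicate 2 and injured 12 h replicate 2. The polyA spike-ins of the latter had a mean of -1.5 over 27 probe sets. In it 8 channel genes lay beyond 0.5 from their own median over arrays, against 0 in both other 12 h arrays. The SD over all genes was 0.372 in it too, against 0.236 and 0.244 in those arrays. The share of all genes beyond 0.5 was not computed. The 48 h arrays were not alike. The median over the channel genes was -0.13 and -0.155 in injured 48 h replicates 1 and 2 but 0.01 in replicate 3, against -0.063 to 0.06 in the 13 other arrays. The mean of 10 neuronal marker genes moved with it, at -0.235, -0.258 and 0.038. The results at 48 h are therefore given with and without replicate 3. Replicate 3 was singled out by the channel genes' own median, so leaving it out favours calls of lower channel genes. Fits without it are no independent support for a fall. The labels do not say that arrays are separate animals, and p-values measure the spread between arrays.

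In the comparisons with sham, channel genes were called about as rarely as all genes were, and most of their differences were modest. With limma's moderated test and a Benjamini-Hochberg adjusted p under 0.05, 13 of the 74 genes passed in at least 1 comparison and 61 in none. In size, 66 of the 74 never differed by more than 0.5 from sham in any of the 5 comparisons with sham. The shares of all genes for these counts were not computed. The median size of the differences at 12 h was 0.1 for channel genes and 0.113 for all genes. At 48 h against the early shams it was 0.132 and 0.124. At 3 h none of the 74 passed, where 0.584% of all genes did, and the largest difference was 0.393. An unadjusted p under 0.05 was met by 5 channel genes at 3 h (9.55% of all genes). At 6 h 2 passed (2.67% of all genes), 1 higher (1.98%) and 1 lower (0.682%), at 12 h 5 passed (4.87%), and at 48 h 7 passed against the early shams (9.68%). The shares of channel genes, 2.7%, 6.76% and 9.46%, were near those of all genes. The directions differed from time to time: all 5 channel genes called at 12 h were lower, where 1.38% of all genes were called lower and 3.49% higher. At 48 h 5 were lower (3.32% of all genes) and 2 were higher (6.37%).

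At 3 h the injured arrays of 9 channel genes lay wholly above the early shams (7.48% of all genes did) and those of 2 wholly below (10.3%). At 6 h these counts were 9 (10.8%) and 6 (12.8%), at 12 h 4 (10.5%) and 10 (11%), and at 48 h 4 (14.7%) and 12 (14.7%).

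**Figure D1:**
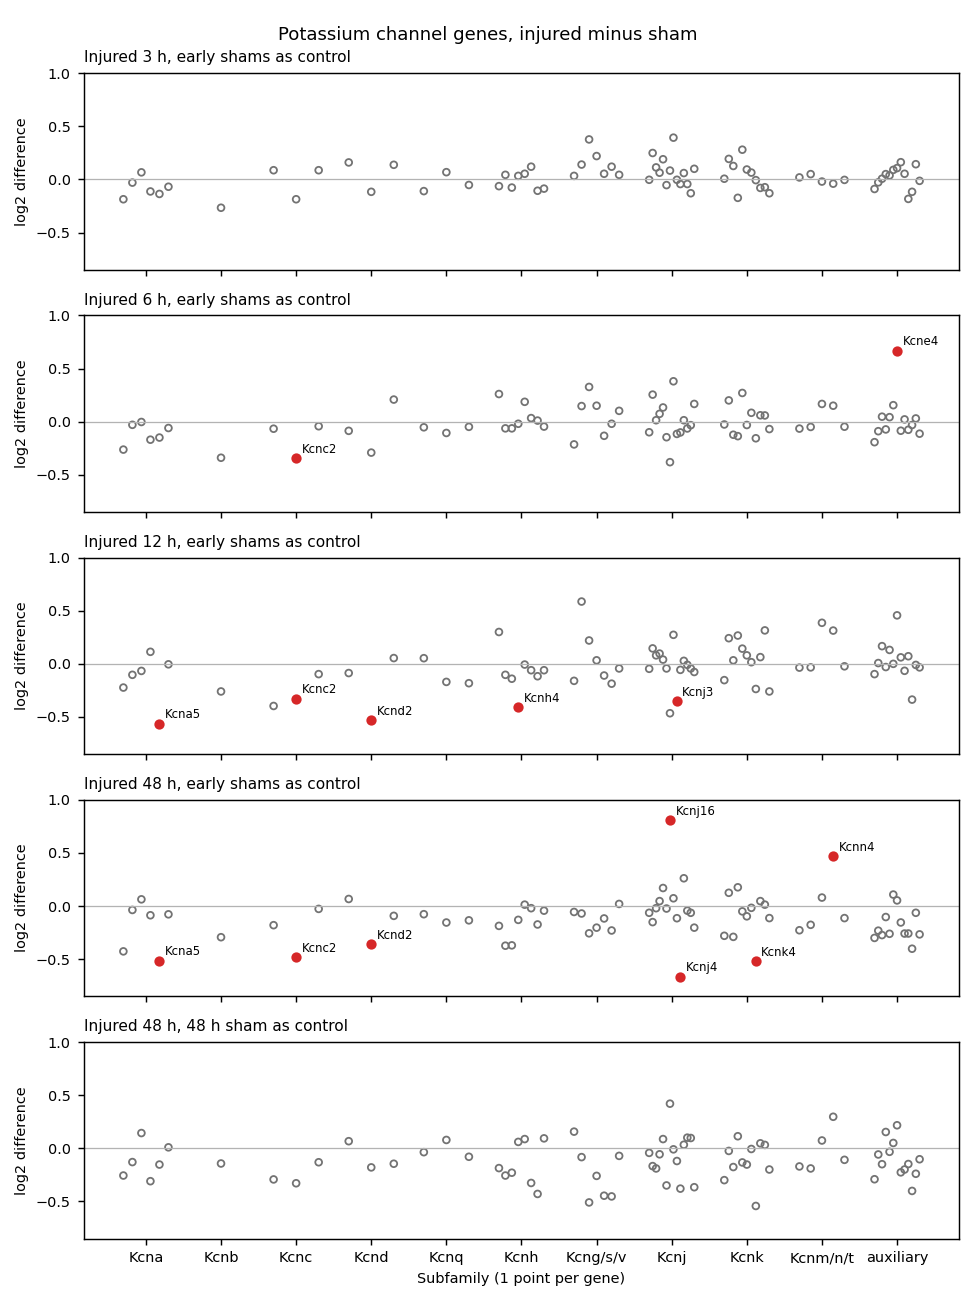
The log2 difference between injured and sham arrays for each of the 74 potassium channel genes, 1 point per gene, by subfamily along the horizontal axis, with 1 panel per comparison. Filled red points passed limma's test at an adjusted p under 0.05 and are named, open points did not. No point is filled at 3 h or against the 48 h sham, and most points lie within 0.5 of zero in every panel.

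RefSeq (rat assembly GRCr8) gave promoter windows of 300 bases (250 before and 50 after a transcript start) for 51 of the 74 channel genes, 57 windows in all because some genes have several. Of the 13 genes that passed, 10 had a window. In 22 of the 57 windows the start was the start of the gene itself, and in the others it lay inside the gene, as for Kcnj16, 27995 bases in. The 3 genes that passed and whose window sits at the gene's own start are shown by the 250 bases before it. Kcnj4 was lower at 48 h, Kcnh4 was lower at 12 h, and Kcnab3 fell from 12 to 48 h.
Kcnj4, chr7:112954548-112954797, minus strand: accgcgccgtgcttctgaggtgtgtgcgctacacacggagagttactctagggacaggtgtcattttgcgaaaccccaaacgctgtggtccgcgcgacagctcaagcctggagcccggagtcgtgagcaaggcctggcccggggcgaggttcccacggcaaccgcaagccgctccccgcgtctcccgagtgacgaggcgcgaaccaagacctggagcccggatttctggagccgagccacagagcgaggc
Kcnh4, chr10:86188477-86188726, minus strand: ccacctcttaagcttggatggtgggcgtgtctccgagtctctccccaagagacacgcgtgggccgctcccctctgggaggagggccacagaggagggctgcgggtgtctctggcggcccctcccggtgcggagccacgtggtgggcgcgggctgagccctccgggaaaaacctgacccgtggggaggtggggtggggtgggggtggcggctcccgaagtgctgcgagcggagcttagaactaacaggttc
Kcnab3, chr10:54546388-54546637, plus strand: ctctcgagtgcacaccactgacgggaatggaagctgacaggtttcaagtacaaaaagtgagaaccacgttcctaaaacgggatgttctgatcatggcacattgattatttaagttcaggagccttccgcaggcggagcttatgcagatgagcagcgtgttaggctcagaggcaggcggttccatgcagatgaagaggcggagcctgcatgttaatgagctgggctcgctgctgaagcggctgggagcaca

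These windows held none of the 4 motifs searched, on both strands, in all 300 bases, and capitals, which would mark a match, are therefore absent. The AP-1 motif TGANTCA was in 3 of the 57 windows, those of Kcne1, Kcnj1 and Kcnj16, and in 7.329% of 33469 windows over all genes. The cyclic AMP response element TGACGTCA was in 0 of the 57 and in 1.829% of all. The GC box GGGCGG was in 32 of the 57, in 3 of the 11 windows of genes that passed and in 33.063% of all windows. TATAAA was in 2 of the 57 and 14.222% of all. The windows of the channel genes had a median GC content of 61.7%, against 51.7% over all windows, and that of Kcnj16 had 34%. These matches describe letters only, and a window without a match says nothing about the factor.

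Among the delayed rectifiers of the Kcna subfamily, Kcna5 (Kv1.5, a subunit found in vessel muscle and glia, chr4:161040853-161044311 in GRCr8) fell late. Its values were 0.22, 0.34 and 0.07 in the early shams, -0.02, 0.10 and 0.14 at 3 h and 0.04, 0.12 and 0.02 at 6 h. They were -0.28, -0.50 and -0.28 at 12 h and -0.48, -0.19 and -0.24 at 48 h. All 6 arrays of the last 2 times lay below every earlier injured array and every early sham. Kcna5 was 1.48-fold lower at 12 h (log2 -0.56 ± 0.10 SE, n = 3 and 3, limma adjusted p = 0.00461). At 48 h it was 1.43-fold lower than the early shams (-0.51 ± 0.10, adjusted p = 0.00586), and both calls held without any 1 array. The 48 h sham itself stood at -0.15, below all 3 early shams, and against it the 48 h difference was -0.15 (95% interval -0.45 to 0.14, adjusted p = 0.857).

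The other 5 Kcna genes did not pass at any time. Kcna1, the axonal channel Kv1.1 whose loss causes seizures, differed by -0.19, -0.26, -0.22 and -0.43 at 3, 6, 12 and 48 h (SE 0.15). Its early shams ran from -0.14 to 0.37, and 4 of its 12 injured arrays lay below that range, 2 of them at 48 h (-0.28 and -0.47). Without injured 48 h replicate 3 its difference was -0.55 ± 0.16 and passed (adjusted p = 0.0337). Kcna2, its partner along the axon, stayed between -0.13 and -0.03 in all 5 comparisons with sham, and Kcna3 and Kcna6 between -0.08 and 0.14. Kcnb2, the one Kcnb gene analysed here, differed by -0.27, -0.34, -0.26 and -0.29 at the 4 times and did not pass at any.

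Kcnc2 (Kv3.2, which lets fast-spiking interneurons repolarize quickly, chr7:49586274-49770212) was lower than sham at 6, 12 and 48 h. The early shams stood at 0.25, 0.28 and 0.19. The injured arrays were at 0.02, 0.13 and 0.01 at 3 h, at -0.13, -0.19 and -0.003 at 6 h, at -0.08, -0.11 and -0.08 at 12 h and at -0.28, -0.37 and -0.06 at 48 h. All 12 injured arrays were below all 3 early shams, and the 48 h sham, at 0.09, was below them too. The differences were -0.19 at 3 h (not called, adjusted p = 0.495), -0.35 ± 0.08 at 6 h (adjusted p = 0.0389), -0.33 ± 0.08 at 12 h (0.0352) and -0.48 ± 0.08 at 48 h (0.00353), by limma. The 6 h and 12 h calls each stood in 1 of 6 fits that left out 1 array (replicate 3 of that time), with adjusted p up to 0.177 and 0.132 in the others, and the 48 h call stood in all 6. Against the 48 h sham the difference was -0.33 (95% interval -0.58 to -0.08, adjusted p = 0.515).

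The 6 probe sets of Kcnc2 did not move equally. At 48 h they differed by -0.42, -0.94, -0.69, -0.46, -0.14 and -0.23, and 4 of the 6 passed when each probe set was tested by itself, the one at -0.94 with an adjusted p of 0.001. From 12 to 48 h that one fell by 0.58 (adjusted p = 0.011), while the gene's mean differed by -0.15 and did not pass. The array annotation does not say which transcript variants the probe sets report.

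**Figure D2:**
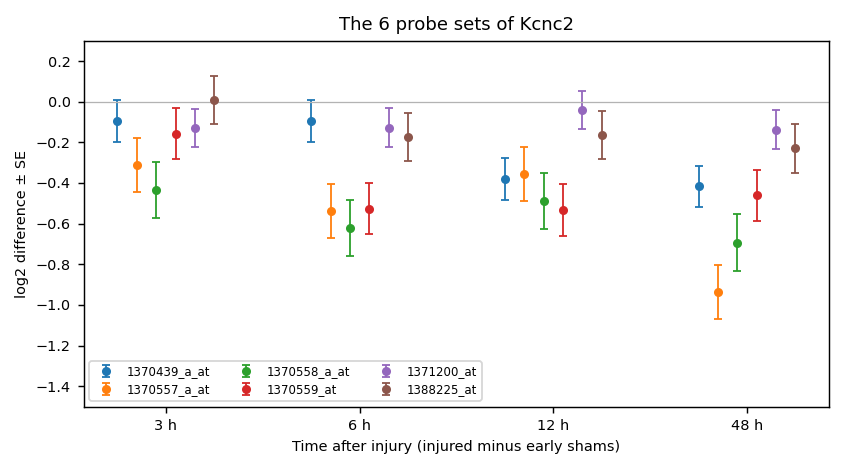
The log2 difference between injured and early sham arrays (3 against 3) for each of the 6 probe sets of Kcnc2, by time since injury (3 to 48 h), with bars of 1 SE. At 48 h the lowest probe set, in orange, is at -0.94, while the highest, in purple, is at -0.14.

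Interneuron markers stood beside this. The median difference of 6 interneuron genes was -0.25 at 3 h and -0.24 at 6 h, with 0 of the 6 called at either time. It was -0.31 at 12 h and -0.28 at 48 h, with 1 and 2 of the 6 called lower. Their mean ran from 0.094 to 0.298 in the early shams, from -0.255 to 0.022 at 12 h and from -0.141 to 0.028 at 48 h, and it was 0.208 in the 48 h sham. Their part in the Kcnc2 values was not tested, and in whole tissue fewer cells of a type and less RNA per cell cannot be told apart. Kcnc1 (Kv3.1, of the same fast-spiking cells) differed by -0.40 ± 0.15 at 12 h and -0.18 at 48 h and did not pass. Its injured 12 h arrays, at -0.37, -0.49 and -0.16, all lay below the early shams at 0.03, 0.22 and -0.08. Kcnc4 stayed between -0.13 and 0.09 throughout.

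Kcnd2 (Kv4.2, the dendritic A-type channel that damps back-propagating spikes, chr4:50741595-51243540) declined through the first 12 h. Its arrays read 0.17, 0.37 and 0.19 in the early shams and 0.06, 0.18 and 0.14 at 3 h. They read -0.01, -0.08 and -0.06 at 6 h, -0.12, -0.46 and -0.28 at 12 h and -0.28, -0.09 and 0.02 at 48 h. The groups at 6, 12 and 48 h did not overlap the early shams, and the 3 h arrays did. Kcnd2 was 1.45-fold lower at 12 h (-0.53 ± 0.10, limma adjusted p = 0.00674, called without any 1 array, with adjusted p up to 0.0429). Both of its probe sets were called there, at -0.47 and -0.59. At 48 h it was 1.28-fold lower (-0.36 ± 0.10, adjusted p = 0.0343), a call that stood in 1 of 6 fits without an array, the one without 48 h replicate 3 (adjusted p up to 0.138 in the others). With all 4 shams as control it did not pass (-0.31, adjusted p = 0.0566). Against the 48 h sham, at 0.06, the difference was -0.18 (95% interval -0.48 to 0.12, adjusted p = 0.825). The 6 h difference was -0.29 (adjusted p = 0.157). Kcnd1 and Kcnd3, the other pore subunits of the A-type current, did not pass and lay between -0.15 and 0.21 in all comparisons with sham.

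As a group, 11 of the 13 Kcna to Kcnd genes had a negative difference at 12 h, with a median of -0.10 and 3 called lower. Of all genes 53.9% were below 0 there and 1.38% were called lower, with a median of -0.02. At 48 h against the early shams 11 of 13 were again below 0, with a median of -0.09 and the same 3 genes, Kcna5, Kcnc2 and Kcnd2, called lower. Of all genes 52.3% were below 0 in that comparison and 3.32% were called lower, with a median of -0.01. Camk2a, an excitatory neuron gene, differed by -0.69 ± 0.12 at 12 h (adjusted p = 0.00541) and -0.77 ± 0.12 at 48 h (adjusted p = 0.00228). In the 48 h sham Camk2a differed by -0.85 from the early shams (not called, adjusted p = 0.285), and injured 48 h arrays differed from it by 0.08. In the list of 10 neuronal markers Camk2a was 1 of 1 called lower at 12 h and 1 of 2 at 48 h, and it was the lowest gene at both times. The list's median was -0.138 at 12 h and -0.231 at 48 h. Their part in the channel values was not tested.

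Kcnq genes, which carry the muscarine-sensitive brake on firing, gave no call. Kcnq3 differed by 0.07, -0.11, -0.17 and -0.16 at 3, 6, 12 and 48 h (SE 0.17), and Kcnq5 by -0.05, -0.05, -0.18 and -0.13 (SE 0.07). Kcnq1, mainly a heart and epithelial channel, stayed between -0.11 and 0.05.

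In the ether-a-go-go family (Kcnh), Kcnh4 fell at 12 h and came back. It read -0.02, 0.17 and 0.18 in early shams, 0.19, 0.03 and 0.21 at 3 h, 0.31, -0.06 and 0.02 at 6 h, -0.39, -0.21 and -0.29 at 12 h and -0.03, -0.05 and 0.02 at 48 h. The 12 h arrays stood below the arrays of every other group. Its 12 h difference was -0.41 ± 0.10 (limma adjusted p = 0.028), lost without 12 h replicate 1 or early sham replicate 2 or 3 (adjusted p up to 0.116), and its 48 h difference was -0.13. The step from 12 to 48 h, 0.28, did not pass (adjusted p = 0.0709). Kcnh1, the founding member Eag1, had positive differences of 0.26 and 0.30 at 6 and 12 h that did not pass (adjusted p at 12 h = 0.198) and was -0.19 at 48 h.

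From 12 to 48 h, a comparison of injured arrays alone, Kcnh1 fell by 0.49 ± 0.13 (adjusted p = 0.0198). Its 12 h arrays were 0.12, 0.64 and 0.11 and its 48 h arrays -0.28, -0.32 and 0.01. The call was lost without 12 h replicate 2, the array at 0.64, and without 48 h replicate 1 or 2 (adjusted p up to 0.0771). In this step 15.3% of all genes were called, against 4 of the 74 channel genes, which is 5.41%. Of these 4 genes 3 fell, where 7.14% of all genes did, and 1 rose, where 8.19% did. Kcnh2, the channel HERG, read -0.49, -0.40 and -0.03 at 48 h against 0.05, 0.00 and 0.15 in early shams. It lay just outside the threshold at -0.37 ± 0.11 (adjusted p = 0.0501) and passed without 48 h replicate 3, at -0.51 (adjusted p = 0.00345).

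The 7 silent subunits form no channel alone and modify Kcnb pores, and none passed at any time. Kcns1 turned from 0.38 at 3 h, 0.33 at 6 h and 0.22 at 12 h to -0.26 at 48 h (SE 0.18), and its 48 h arrays were spread from -0.84 through -0.30 to -0.03. Kcng3 had the largest positive 12 h difference of all channel genes, 0.59 ± 0.33, and did not pass. That mean came from 1 array, since the 12 h arrays read 0.00, 1.71 and -0.05. Replicate 2 is the array with the low polyA spike-in controls, and it also held the highest values of the tandem-pore channels Kcnk13 (1.0, against -0.01 and -0.08) and Kcnk6 (0.69, against 0.00 and 0.12). The part of the spike-in controls in these values was not tested.

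Inward rectifiers gave the largest single change. Kcnj16 (Kir5.1, which joins Kir4.1 in the potassium-clearing channels of astrocytes, chr10:96489329-96520745) read 0.16, 0.20 and -0.02 in the early shams and -0.08, 0.62 and 0.06 at 3 h. It read -0.27, -0.08 and -0.44 at 6 h, -0.48, -0.42 and -0.16 at 12 h and 1.46, 0.89 and 0.42 at 48 h. The 6 and 12 h arrays all lay below the early shams and the 48 h arrays all lay above them. The 48 h sham, at 0.50, lay above the early shams too and within the injured 48 h range. The 6 and 12 h differences, -0.38 and -0.46, did not pass (SE 0.22, adjusted p = 0.477 and 0.26).

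At 48 h Kcnj16 was 1.75-fold higher than the early shams (0.81 ± 0.22, limma adjusted p = 0.0362). From 12 to 48 h it rose 2.42-fold (1.27 ± 0.22, adjusted p = 0.00236). It was the only channel gene with a difference beyond 1 in any of the 9 comparisons. The rise from 12 h was called without any 1 array, with adjusted p up to 0.00964. The call against early shams stood in 1 of 6 such fits, the one without 48 h replicate 3, where the difference was 1.06 (adjusted p = 0.00425), and adjusted p rose to 0.13 in the others. Both probe sets rose from 12 to 48 h, by 0.80 and 1.75. Against the 48 h sham the difference was 0.42 (95% interval -0.26 to 1.10, adjusted p = 0.821).

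Kcnj10, the Kir4.1 partner, differed by -0.14 ± 0.14 at 48 h and by 0.05 from 12 to 48 h and did not pass. It is not among the 74 genes. Of 8 astrocyte markers 3 were called higher than the early shams at 48 h, Gfap (1.85), Aqp4 (0.45) and Gja1 (0.28). The other 5 were not called, with Gjb6 at -0.57, Aldoc at -0.10, and Slc1a2 and Slc1a3 at 0.04 and 0.06, and the list's median was 0.13. Its mean ran from 0.237 to 0.288 at 48 h, from -0.127 to -0.022 at 12 h and from -0.037 to 0.011 in early shams. Of 6 pericyte and smooth muscle markers 2 were called, Tagln with 2.50 the largest, and Pdgfrb and Acta2 were at -0.03 and 0.05. The median of that list was 0.13, and its mean, 0.486 to 0.625 at 48 h, leaned on Tagln. The 48 h sham was at 0.04 for the astrocyte list and 0.297 for the pericyte list. The part of either cell type in the Kcnj16 values was not tested.

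Other rectifiers were lower. Kcnj3 (GIRK1, opened by inhibitory G-protein-coupled receptors, chr3:60353990-60518110) fell at 12 h. It read -0.02, 0.18 and 0.17 in early shams and -0.09, -0.38 and -0.25 at 12 h, with no overlap. The difference was -0.35 ± 0.09 (adjusted p = 0.0327), called in 2 of 6 fits without an array, those without 12 h replicate 1 or early sham replicate 1 (adjusted p up to 0.146 in the others). Its 3 probe sets gave -0.42, -0.47 and -0.16. By 48 h all 3 arrays were back between -0.01 and 0, and the difference was -0.11. The partner subunits Kcnj6 and Kcnj9 did not pass, and Kcnj6 stayed between -0.06 and 0.10 in all comparisons with sham.

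Kcnj4 (Kir2.3, a strong rectifier of forebrain neurons, chr7:112927494-112954547) read 0.32, -0.06 and 0.13 in early shams and -1.06, -0.50 and -0.05 at 48 h. The third 48 h array lay within the range of the shams, so the groups overlapped. Kcnj4 passed narrowly at 48 h (-0.66 ± 0.20, 1.59-fold lower, adjusted p = 0.0481), and in 1 of 6 fits without an array (adjusted p up to 0.161 in the others). That fit was without replicate 3, where the difference was -0.91 (adjusted p = 0.00353). The 48 h sham stood at -0.16, and against it the difference was -0.38 (adjusted p = 0.818). At 3, 6 and 12 h the differences were -0.04, -0.10 and -0.06.

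Kcnj2 (Kir2.1, the classical strong rectifier) had the largest difference of any channel gene at 3 h. Its arrays were at -0.28, -0.14 and -0.22 in early shams, 0.25, -0.02 and 0.31 at 3 h, 0.16, 0.32 and 0.02 at 6 h and 0.09, 0.04 and 0.05 at 12 h. All 9 of these injured arrays lay above the early shams. The differences of 0.39, 0.38 and 0.27 (SE 0.10) did not pass, with adjusted p of 0.152, 0.0716 and 0.153, and at 48 h the difference was 0.07. At 6 h it passed after a further quantile normalization. Kcnj11, the pore of the ATP-sensitive channel, differed by 0.25, 0.25, 0.15 and -0.15 and did not pass. Its regulator Abcc8 fell by 0.54 ± 0.13 from 12 to 48 h (adjusted p = 0.0154), where Kcnj11 itself differed by -0.30 (adjusted p = 0.165). Kcnj8 lay between -0.13 and 0.10, and Kcnj13, a choroid plexus channel, between -0.06 and 0.10.

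Among the 11 tandem-pore channels (Kcnk), which give a steady leak of potassium, Kcnk4 (TRAAK, opened by membrane stretch, chr1:213547577-213558706) fell at 48 h. The early shams were at 0.33, 0.16 and -0.03 and the 48 h arrays at -0.56, -0.52 and -0.01. The first pair of 48 h arrays was low, while the third lay within the range of the shams. The difference was -0.52 ± 0.13 (1.43-fold lower, adjusted p = 0.0244), lost without 48 h replicate 1 or 2 or early sham replicate 1 or 2 (adjusted p up to 0.117). Without replicate 3 it was -0.69 (adjusted p = 0.000675). Against the 48 h sham, at 0.18, the difference was of like size, -0.54 ± 0.18 (95% interval -0.94 to -0.15), and did not pass (adjusted p = 0.508). Without replicate 3 the difference of Kcnk4 from the single 48 h sham was -0.72. Replicate 3 was picked by the channel genes' own values, so neither fit without it is independent support for a fall.

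No other Kcnk gene passed with all arrays. Kcnk15 differed by 0.28 at 3 h and 0.27 at 6 h (SE 0.08, adjusted p = 0.177 and 0.083), with 3 h arrays at 0.14, 0.20 and 0.19 above early shams at -0.24, -0.02 and -0.05. Kcnk12 stood at -0.52, -0.52 and 0.36 in the 48 h arrays and at -0.01, 0.03 and 0.17 in early shams, so replicate 3 lay above the shams and both other arrays below them. Kcnk1, Kcnk2, Kcnk3, Kcnk5 and Kcnk9 lay between -0.30 and 0.09 in all comparisons with sham.

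Calcium-activated channels included the other gene that was higher at 48 h. Kcnn4 (the intermediate-conductance channel KCa3.1 of microglia, lymphocytes and vessels, chr1:89084306-89102279) read -0.19, -0.28 and 0.01 in early shams. It read -0.18, -0.16 and -0.24 at 3 h, -0.01, -0.02 and 0.02 at 6 h, 0.18, 0.33 and -0.03 at 12 h and 0.46, 0.42 and 0.07 at 48 h. The 48 h arrays lay above all early shams, replicate 3 by the smallest margin. Kcnn4 was 1.39-fold higher at 48 h (0.47 ± 0.11, adjusted p = 0.0196), and 0.59 (adjusted p = 0.00253) without replicate 3. The call was lost without 48 h replicate 1 or 2 or early sham replicate 1 or 2 (adjusted p up to 0.0933). Its 12 h difference was 0.31 (adjusted p = 0.133), and against the 48 h sham, at 0.02, the 48 h difference was 0.30 (adjusted p = 0.73).

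Markers of some of the cell types that carry Kcnn4 moved as well, and others did not. Of 7 microglial genes 5 were called higher at 48 h, with list means of 1.096 to 1.781 there against 0.03 to 0.354 in early shams and 0.684 in the 48 h sham. The microglial list was below the shams at 12 h, at -0.733 to -0.541, where Kcnn4 stood at -0.03 to 0.33. Of 6 leukocyte genes measured (S100a8, S100a9, Cd14, Lyz2, Ptprc and Itgam), 3 were called higher at 12 h and 4 at 48 h. No list of lymphocyte markers was examined. Of 7 endothelial genes 0 were called at 48 h against the early shams, with a median of 0.199. The part of these cells in the Kcnn4 values was not tested. Kcnn3, the small-conductance channel SK3, lay just outside the threshold at 12 h (0.39 ± 0.11, adjusted p = 0.0564) with arrays at 0.31, 0.47 and 0.24 above early shams at -0.02, -0.12 and 0.00. Kcnma1, the large-conductance BK pore, differed by -0.23 ± 0.08 at 48 h (adjusted p = 0.097), and the sodium-activated Kcnt1 by -0.11.

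**Figure D3:**
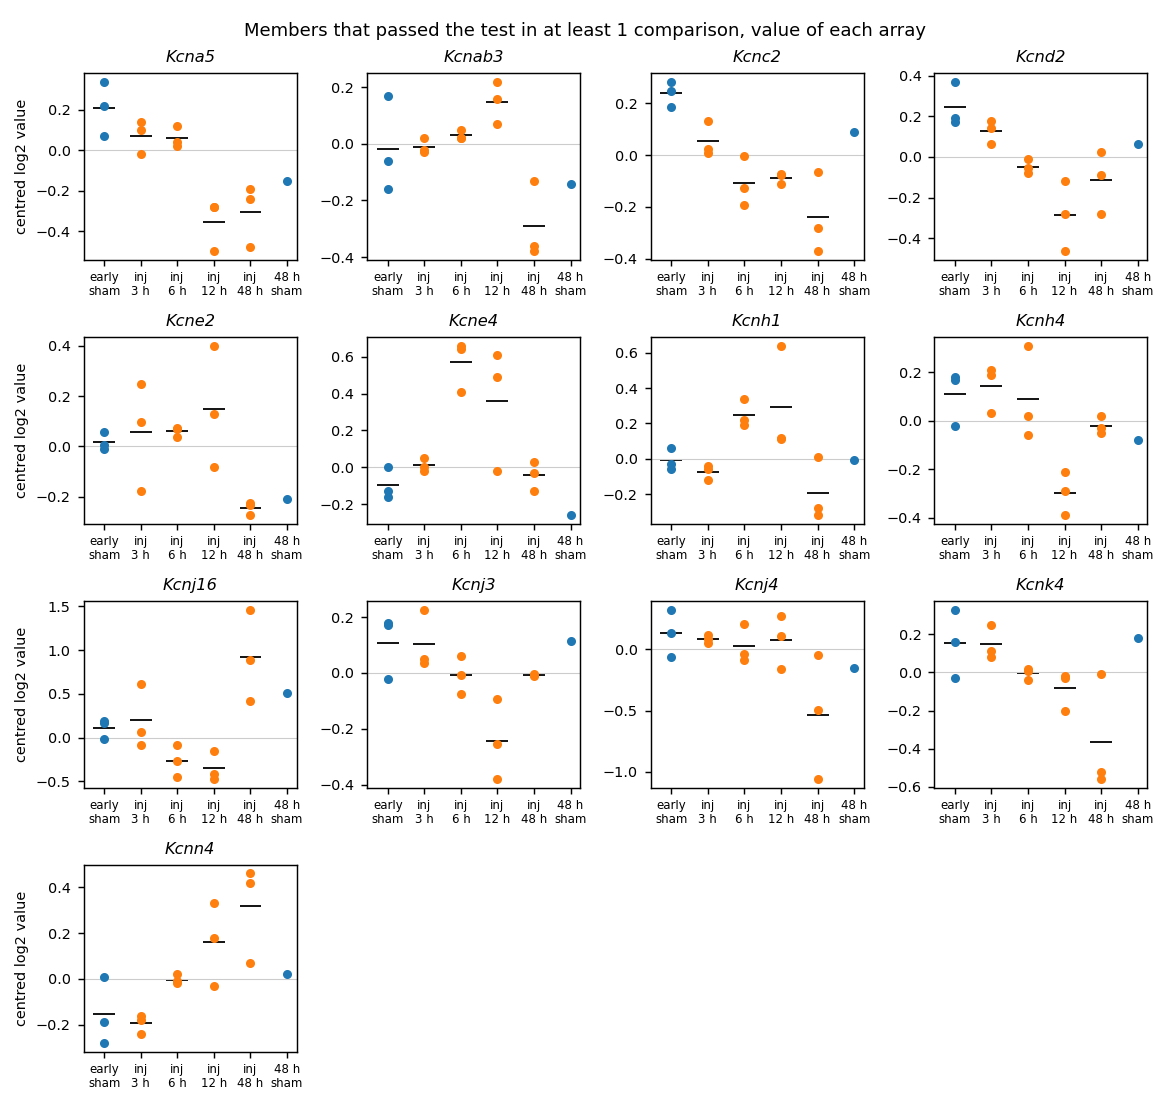
Centred log2 value of each array for the 13 potassium channel genes that passed limma's test in at least 1 comparison; blue points are sham arrays, orange points injured arrays, and a short bar marks the mean of a group of 3. Kcnj16 is lowest at 12 h and highest at 48 h, Kcna5 lies below the early shams at 12 and 48 h, and Kcne4 is high at 6 h.

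Auxiliary subunits held the only channel gene called higher than sham before 48 h. Kcne4, a small membrane subunit that inhibits several Kv1 channels and Kv7.1 (chr9:87674264-87699088), read -0.13, -0.16 and 0.00 in early shams and 0.00, -0.02 and 0.05 at 3 h. It read 0.41, 0.66 and 0.64 at 6 h, 0.49, 0.61 and -0.02 at 12 h and 0.03, -0.13 and -0.03 at 48 h. All 6 h arrays and all but replicate 3 of the 12 h arrays stood above every sham and every 3 h and 48 h array. Kcne4 was 1.59-fold higher at 6 h (0.67 ± 0.13, adjusted p = 0.0126), a call lost without 6 h replicate 2 or 3 or early sham replicate 1 or 2, with adjusted p up to 0.0719. At 12 h the difference was 0.46 (adjusted p = 0.0617), at 48 h 0.05, and the step from 3 to 6 h was 0.56 (adjusted p = 0.0546).

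Kcne2, a subunit abundant in choroid plexus, fell by 0.39 ± 0.11 from 12 to 48 h (adjusted p = 0.0341), called in 1 of 6 fits without an array, the one without 12 h replicate 1 (adjusted p up to 0.119 in the others). It read -0.08, 0.13 and 0.40 at 12 h and -0.27, -0.23 and -0.22 at 48 h, and the 48 h sham, at -0.21, stood with the latter. Its 3 probe sets gave -0.50, -0.65 and -0.02. Of 4 choroid plexus genes measured none was called in this step. Ttr, the carrier protein of that tissue, read 1.97, 0.11 and 5.49 at 12 h and -0.41, -0.74 and -0.58 at 48 h, a difference of -3.10 (adjusted p = 0.0944), while Kl, Folr1 and Aqp1 differed by -0.14, 0 and -0.003. The mean of the 4, which ran from 0.005 to 1.453 at 12 h and from -0.179 to -0.124 at 48 h, followed Ttr. The part of plexus tissue in the Kcne2 values was not tested.

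Kcnab3, a cytoplasmic beta subunit of Kv1 channels, fell by 0.44 ± 0.09 from 12 to 48 h (adjusted p = 0.00559), a call that held without any 1 array. With only the 2 groups in the fit, Kcnab3 did not pass. It read 0.22, 0.07 and 0.16 at 12 h and -0.13, -0.38 and -0.36 at 48 h, with early shams at -0.16, 0.17 and -0.06. The 48 h arrays lay below all 12 h arrays but overlapped the shams, and the difference from the early shams was -0.27 (adjusted p = 0.0705). Kcnab1 differed by -0.30 and Kcnab2 by -0.23 at 48 h, and neither passed.

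Kcnip genes, the calcium-binding subunits that bring Kcnd channels to the membrane, gave no call with all arrays. At 48 h Kcnip1, Kcnip2, Kcnip3 and Kcnip4 differed by -0.15, -0.26, -0.26 and -0.40. The arrays of Kcnip4 were at -0.44, -0.44 and -0.01 against 0.10, 0.17 and 0.04 in early shams. Its difference (SE 0.13, adjusted p = 0.0742) passed without replicate 3, at -0.55 (adjusted p = 0.0119). Kcnmb4, the neuronal beta subunit of BK, differed by -0.27 ± 0.08 at 48 h (adjusted p = 0.0557).

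Across the subfamily, 11 of the 13 auxiliary genes had a negative 48 h difference from early shams, with a median of -0.26, although 0 passed. An unadjusted p under 0.05 was met by 7 of them, by 20 of all 74 channel genes and by 25.3% of all genes. Over all 74 genes, 57 were below 0 at 48 h (77%, against 52.3% of all genes), with a median of -0.11 against -0.01. Against the 48 h sham 53 were below 0 (71.6% against 50.2%), with a median of -0.13 against 0. At 3 h, 33 of the 74 were below 0 (44.6%), and at 6 and 12 h 45 were (60.8% each time, against 56.7% and 53.9% of all genes). The lower array medians of the channel genes were those of injured 48 h replicates 1 and 2, where the mean of the neuronal markers was lower too, and not that of replicate 3. The median difference of the 10 neuronal markers was -0.231 against the early shams, with 2 called lower. Against the 48 h sham it was -0.082, with 0 called. The part of neurons in the channel values was not tested.

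Without injured 48 h replicate 3, 17 channel genes were called at 48 h against the early shams, 14 of them lower. That is 23% of the 74, where 14.4% of all genes were called in the same fit. These held all 7 that passed with every array and 10 more, among them Kcna1, Kcnh2, Kcnh3, Kcnip2, Kcnip4, Kcnk1, Kcnk12, Kcnab2 and Kcnmb4, which were lower, and Kcnj5, which was higher. The count from 12 to 48 h went from 4 to 13 in the same way, with 3 of the 4 kept, which is 17.6% of the channel genes against 15.8% of all genes in that fit. Replicate 3 was picked by the channel genes' own values, so more lower calls without it were built into the choice. These counts are therefore no test of the channel genes against all genes. Whether replicate 3 or the other arrays stand for the injury at 48 h was not tested.

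**Figure D4:**
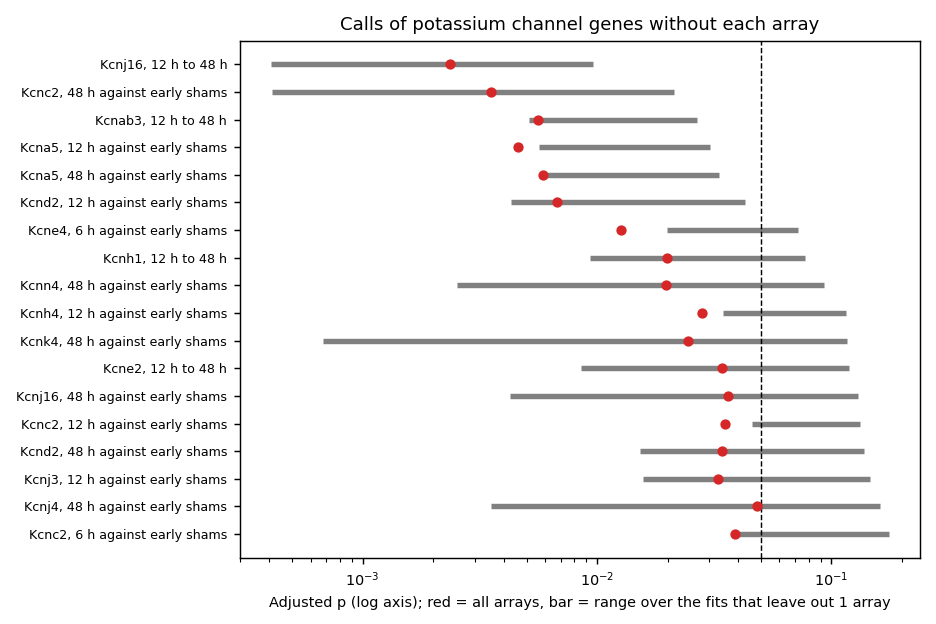
Adjusted p (log axis) of each of the 18 calls of a potassium channel gene; the red point is the value with all arrays, the grey bar spans the 6 fits that each leave out 1 array of the groups compared, and the dashed line marks 0.05. For Kcnj16 and Kcnab3 from 12 to 48 h, Kcnc2 and Kcna5 at 48 h, and Kcna5 and Kcnd2 at 12 h the whole bar lies below the line.

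Against the 48 h sham alone, the control that the series' design names for that time, limma called 0 of the 74 genes and 0% of all genes. An unadjusted p under 0.05 was met by 6 channel genes and 1061 genes in all (7.46%). For this comparison the spread of the single sham was taken from the other groups. From 3 to 6 h 0 channel genes were called (1.2% of all genes), with 4 at an unadjusted p under 0.05 (14.7%). From 6 to 12 h limma called 0 (0.0141%), with 6 at that unadjusted p (8.78%). The 48 h sham against the early shams gave 0 (0.00703%), with 1 at an unadjusted p under 0.05 (6.84%), which was Kcna5 at -0.36.

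Genes that work beside potassium channels were counted too. Of 42 listed sodium, calcium and HCN channels, pumps and channel partners 36 were measured. None was called at 3, 6 or 12 h, where 0.584%, 2.67% and 4.87% of all genes were. Against the early shams 1 was lower at 48 h (3.32% of all genes). From 12 to 48 h 2 were lower (7.14% of all genes). So few calls in a list of 36 do not set it apart from all genes. The calcium channel subunit Cacnb3 was lower at 48 h (-0.46 ± 0.11, adjusted p = 0.0223). Dpp6 and Dpp10, which speed Kcnd currents, differed by -0.14 and -0.29 at 12 h and did not pass. Cntnap2, which gathers Kcna1 and Kcna2 beside the node of Ranvier, differed by -0.42 ± 0.13 at both 12 and 48 h (adjusted p = 0.0939 and 0.0644).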

How the data were processed

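The deposited log2 values of the Affymetrix rat arrays were made with RMA, per the submitters' processing notes; the base of the logarithm is not given in the sources used here. Each probe set's median over the 16 arrays is 0. Arrays have no read depth, and precision is limited by how many there are. Of 31099 probe sets, 20832 have exactly 1 symbol in the platform annotation, and symbols were updated by gene identifier against RefSeq GRCr8 (20764 probe sets). Probe sets of a gene were averaged. All 6 groups entered 1 linear model in limma 3.58.1 (R 4.3.3, 10 residual degrees of freedom), which gave differences, SE and two-sided moderated tests. P-values were adjusted over 14218 genes by Benjamini-Hochberg, and a gene was called at adjusted p under 0.05. The script was tested on simulated data. Genes named are those called, those with the largest differences between groups that do not overlap, and a listed panel. Kcna6, Kcnc4, Kcnd1, Kcng3, Kcnh3, Kcnj1, Kcnk5, Kcnq1 and the genes named without being members were picked after their values were seen. The members and lists were chosen with earlier results of these data known. Alternatives were other normalizations, probe set rules, shams, only 2 groups in the fit and leaving out arrays.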

Additional observations from a re-analysis of the deposited data

Results flagged for a closer look

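In 4 channel genes the difference from the same early shams was not the same at 12 h and at 48 h, as tested directly between the injured arrays of both times by limma. Kcnj16 rose by 1.27 (adjusted p = 0.00236), while Kcnab3 (-0.44, adjusted p = 0.00559), Kcnh1 (-0.49, 0.0198) and Kcne2 (-0.39, 0.0341) fell, with 3 arrays at each time. With each time set against its own shams, a choice made after seeing the data, none of the 4 passed. The difference was then 0.885 for Kcnj16 (adjusted p = 0.519), -0.317 for Kcnab3 (0.58), -0.487 for Kcnh1 (0.528) and -0.164 for Kcne2 (0.852). That comparison rests on the single 48 h sham.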

How the results depend on the processing

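All 18 calls kept their direction under each alternative run, and of 195 pairs of a call and an alternative 109 kept the call and 86 lost it. Of 363 pairs for named differences that had not passed, 346 stayed so, 16 passed and 1 reversed: Kcng2 against the 48 h sham went from 0.157 to -0.002 with all 4 shams as control. Counts of channel genes called moved as follows. Shares of all genes called under these alternatives are not given here, except above for fits without 48 h replicate 3. A changed count can therefore not be read as a change particular to channel genes. With quantile normalization they were 5 at 6 h (from 2), 3 at 12 h (from 5) and 4 from 3 to 6 h (from 0). With only the 2 groups in the fit they were 1 at 12 h, 2 at 48 h against early shams (from 7), 2 from 3 to 6 h and 1 from 12 to 48 h (from 4). With the sham of the same time as control they were 0 at 6 h and 0 at 12 h. With all 4 shams as control they were 4 at 48 h, in place of 0 against the 48 h sham and of 7 against early shams. From 12 to 48 h, alternatives added after seeing the data gave 2 without both second arrays and 0 with each time set against its own shams. Leaving out 1 array gave 0 to 1 at 6 h, 2 to 7 at 12 h, 0 to 1 at 48 h against the 48 h sham, 2 to 17 at 48 h against early shams and 2 to 13 from 12 to 48 h. The count at 6 h was 0 without 6 h replicate 2 or early sham replicate 1 or 2, and that at 12 h was 2 without early sham replicate 2 or 3. The lowest 48 h counts came without injured 48 h replicate 2 or early sham replicate 2 (2 each), and without 12 h replicate 1 the last step gave 9. The cause of these changes was not tested. The labels do not say whether replicate numbers pair the arrays. Same-numbered injured arrays of different times correlated from -0.188 to 0.257 in their deviations from group means, and 3 of 18 pairs exceeded 0.1. Between 12 and 48 h the same-numbered pairs were at 0.089, 0.193 and 0.189, and differently numbered pairs lay between -0.175 and -0.007. Such correlations cannot settle whether arrays were paired. A replicate block over the 12 injured arrays gave 0, 0 and 3 for the steps from 3 to 6, 6 to 12 and 12 to 48 h. No paired analysis of injury against sham was possible because every sham is labelled replicate 1. The probe sets' signal over background is not given, so undetected genes cannot be told from unchanged ones.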
